A study of Homo sapiens with 12 samples.

Results

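The respiratory chain passes electrons from NADH and succinate to oxygen through 4 membrane complexes of the mitochondrion. Complex I oxidises NADH, complex II oxidises succinate, complex III passes electrons from ubiquinol to cytochrome c, and complex IV, cytochrome c oxidase, hands them to oxygen. Most subunits are encoded in the nucleus and imported, and a small set is encoded by mitochondrial DNA. Differentiating osteoblasts are known to use both glycolysis and oxidative phosphorylation.

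The members were all genes whose symbol on the array starts with NDUFA, NDUFB, NDUFC, NDUFS or NDUFV for complex I, SDHA to SDHD for complex II, UQCR for complex III, and COX4 to COX8 for complex IV. Assembly factors were left out. Of 74 symbols that fitted, 64 were counted as subunits, and 59 of those had a probe set of their own, out of 19775 genes with one on the array. The 64 include 2 paralogs of subunits, COX7A2L, which joins complexes III and IV in supercomplexes, and UQCRHL, a retrotransposed copy of UQCRH. Complex I had 33 of the 59, complex II 3, complex III 6 and complex IV 17. The other 5 (NDUFC2, NDUFS5, NDUFS8, UQCRH and UQCRHL) were named only on probe sets shared with another gene and received no value. The other 10 symbols encode no subunit: the pseudogenes SDHAP1, SDHAP2, SDHAP3, SDHAP4 and COX6A1P1, the read-through NDUFC2-KCTD14, and the non-coding NDUFB2-AS1, NDUFV1-DT, NDUFV2-AS1 and NDUFA6-DT. Some subunits, among them the 13 encoded by mitochondrial DNA, were not analysed here.

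The cells were the human osteosarcoma line SaOS-2 and 2 clones derived from it, wt22 and wt36, named Sa/CD99. The clones stably expressed CD99, a cell surface glycoprotein, after transfection by calcium phosphate and selection with neomycin. Total RNA of Sa/CD99 and of parental SaOS-2 was hybridised to 12 Affymetrix arrays, 2 per line at each of days 0, 7 and 14. Day 0 is the culture in routine medium, and days 7 and 14 were spent in osteogenic medium with ascorbic acid, beta-glycerophosphate and less serum, so that time and medium cannot be told apart. Replicates of Sa/CD99 are different clones. Whether the SaOS-2 replicates were independent cultures is not stated, and p-values rest on the spread between these arrays, part of which may be technical. Values are log2 signals, and a difference of 0.585 on that scale is 1.5-fold.

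One CD99 probe set went against the labels, at 6.67 to 8.88 in the arrays labelled Sa/CD99 and 11.26 to 11.88 in those of SaOS-2, while the other read 12.32 to 12.74 and 12.29 to 12.66. Of 7 osteoblast lineage markers measured, 6 gave signal. None of 3 leukocyte and none of 3 endothelial markers measured did, and 1 of 4 epithelial markers did (EPCAM, 7.22 to 8.68). The study also measured CD99 by real-time PCR in the parental line and both clones on each day, and those values were not used here. The gap between 3' and 5' probes of ACTB, a sign of RNA breakage, spanned 0.11 to 0.24 in 11 arrays and reached 0.46 in 1 array of Sa/CD99 at day 7. The part of any of these in the results below was not tested.

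The subunits gave high signals that varied less over the 12 arrays than those of most probe sets. A probe set counted as having signal when it exceeded 100 on the linear scale in more than 3 of the 12 arrays, and 53 of the 59 subunits did. Their means over the 12 arrays lay between 9.24 for NDUFA9 and 13.03 for COX7A2, and 40 of the 53 had a signal above the 90th percentile of the 18677 probe sets with signal. The interquartile range over the 12 arrays had a median of 0.19 for the 53 subunits, against 0.30 for all probe sets with signal. Only 21 of the 53 therefore also passed the study's filter on spread (39.6%, against 69% of all probe sets with signal), 14 in complex I, 3 in complex III, 4 in complex IV and none in complex II. A second fit without the filter on spread gave a test for all 53. The heat map of subunits by array shows each of the 53.

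The 6 subunits without signal were all tissue isoforms of complex IV. COX4I2, the isoform known from lung and from hypoxic cells, stayed between 5.62 and 6.05 on all arrays, under the floor of 6.64. COX4I1, the common isoform, lay between 12.65 and 12.96 on its own probe set, and signals of different probe sets cannot be set against each other. COX7A1, the heart and muscle isoform of subunit 7A, stayed between 4.03 and 4.67, and COX7A2, its common partner, between 12.81 and 13.11. COX6A2 of heart and muscle and the testis isoforms COX6B2, COX7B2 and COX8C also gave no signal on either line at any day. No tissue isoform thus appeared with time or in either line.

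**Figure D1:**
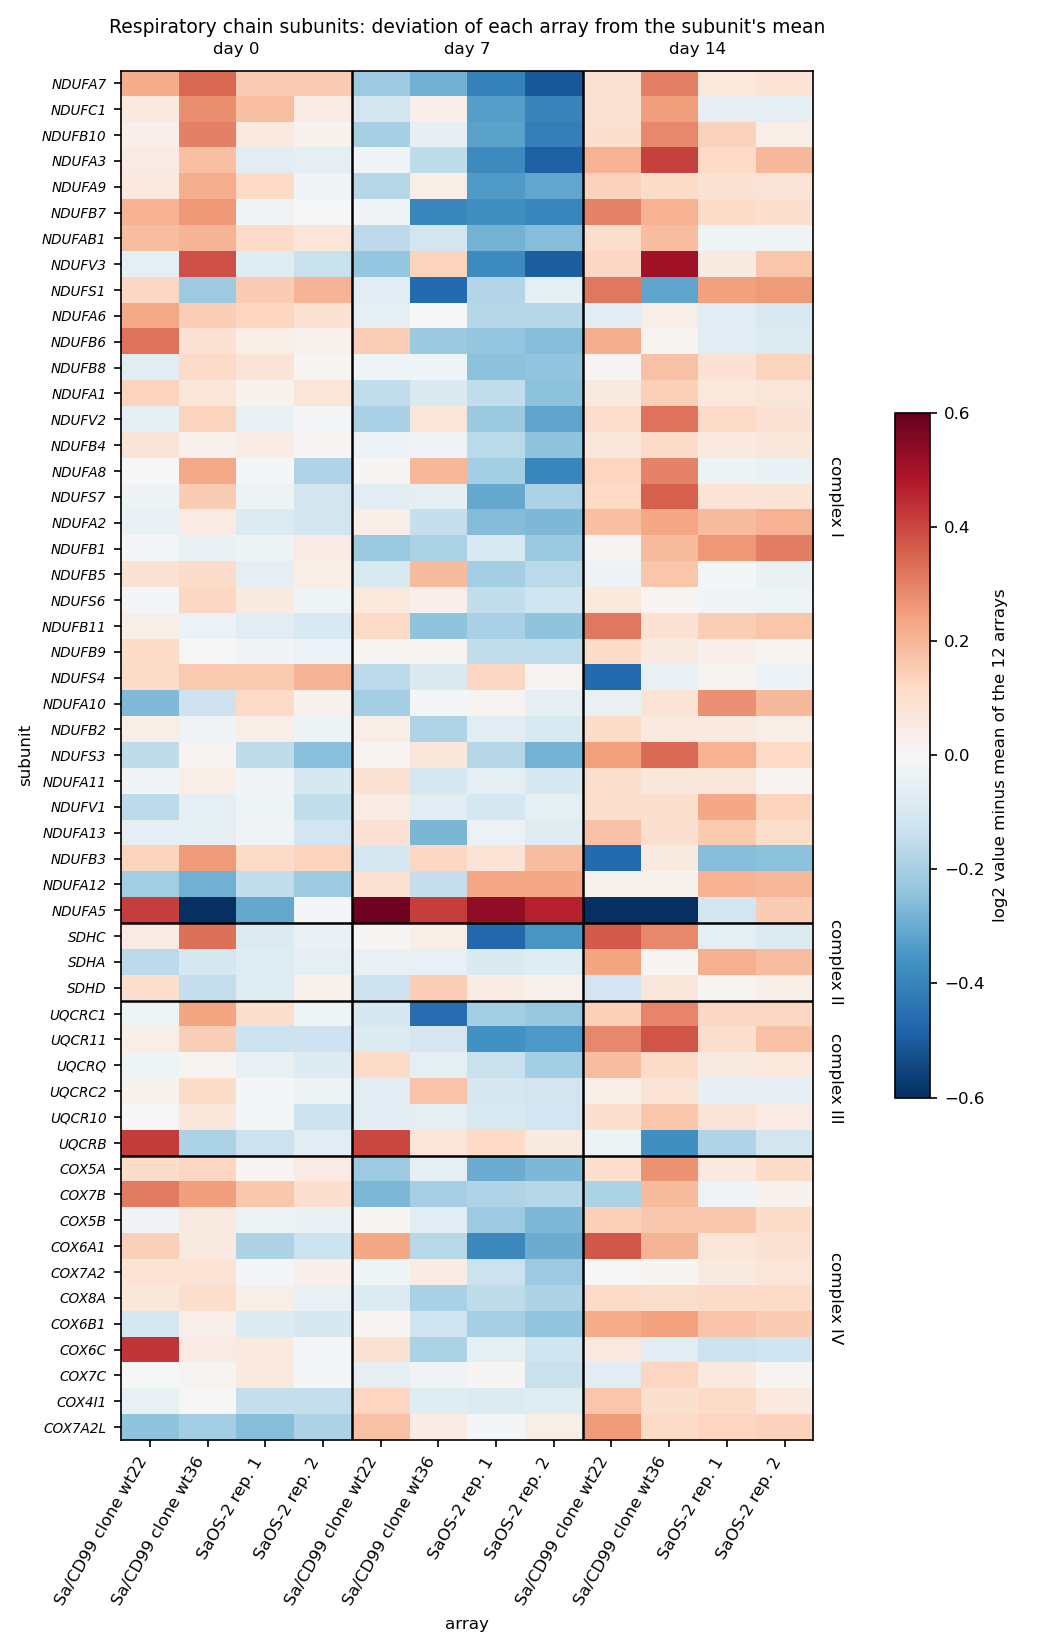
Heat map of the 53 subunits with signal (rows, by complex, ordered by their difference between day 7 and day 0 in SaOS-2) on 12 arrays (columns, by day, clones of Sa/CD99 left of SaOS-2). Colour is the log2 value minus the subunit's mean over the 12 arrays, and colours end at 0.6 in either direction. The day 7 columns of SaOS-2 are blue (below the mean) in most rows of complexes I, III and IV, while NDUFA12 and NDUFA5 are red there.

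Between the lines, no subunit passed the test of an adjusted p of 0.05 and 1.5-fold on any day. In the fit of all tested probe sets, 1.47% of probe sets were called between arrays labelled Sa/CD99 and SaOS-2 at day 0, 1.81% at day 7 and 1.46% at day 14. In the fit without the filter on spread, an unadjusted p under 0.05 was reached by 3, 16 and 4 of the 53 subunits at days 0, 7 and 14, against 11.6%, 21.1% and 15.6% of all probe sets with signal. None had an adjusted p of 0.05, which 1.12%, 2.23% and 1.42% of probe sets with signal had. The 95% interval of the difference lay inside 1.5-fold either way for 49, 46 and 49 of the 53 subunits on these days, while it did so for 78%, 70.9% and 74.6% of all probe sets with signal. The subunits whose interval reached past 1.5-fold were NDUFA5, NDUFS1 and NDUFV3 on all 3 days, UQCRB at days 0 and 7, SDHC at days 7 and 14, and COX6A1 and NDUFA8 at day 7. In bulk RNA, fewer cells of a type and less RNA per cell cannot be told apart.

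Most of the small differences had the same sign. Subunits were higher in Sa/CD99 than in SaOS-2 in 43 of 53 cases at day 0 (81.1%, against 49.7% of all probe sets with signal), 43 at day 7 (against 50.4%) and 38 at day 14 (against 52.8%). The median difference was 0.08, 0.16 and 0.05 on the log2 scale at days 0, 7 and 14, while that of all probe sets with signal was -0.00, 0.00 and 0.01. Both arrays of Sa/CD99 lay above both of SaOS-2 for 26, 31 and 23 subunits at days 0, 7 and 14 (background 19.5%, 27% and 26.5%), and below both for 4, 3 and 7 (background 21.4%, 27.5% and 23.8%). The 1868 probe sets above the 90th percentile of signal had medians of 0.00, 0.02 and 0.02, and 50.7%, 57.1% and 56.2% of them were higher. All 6 subunits of complex III were higher in Sa/CD99 at day 0, with a median of 0.09. By complex, the medians at day 7 were 0.17 for I, 0.04 for II, 0.16 for III and 0.10 for IV.

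**Figure D2:**
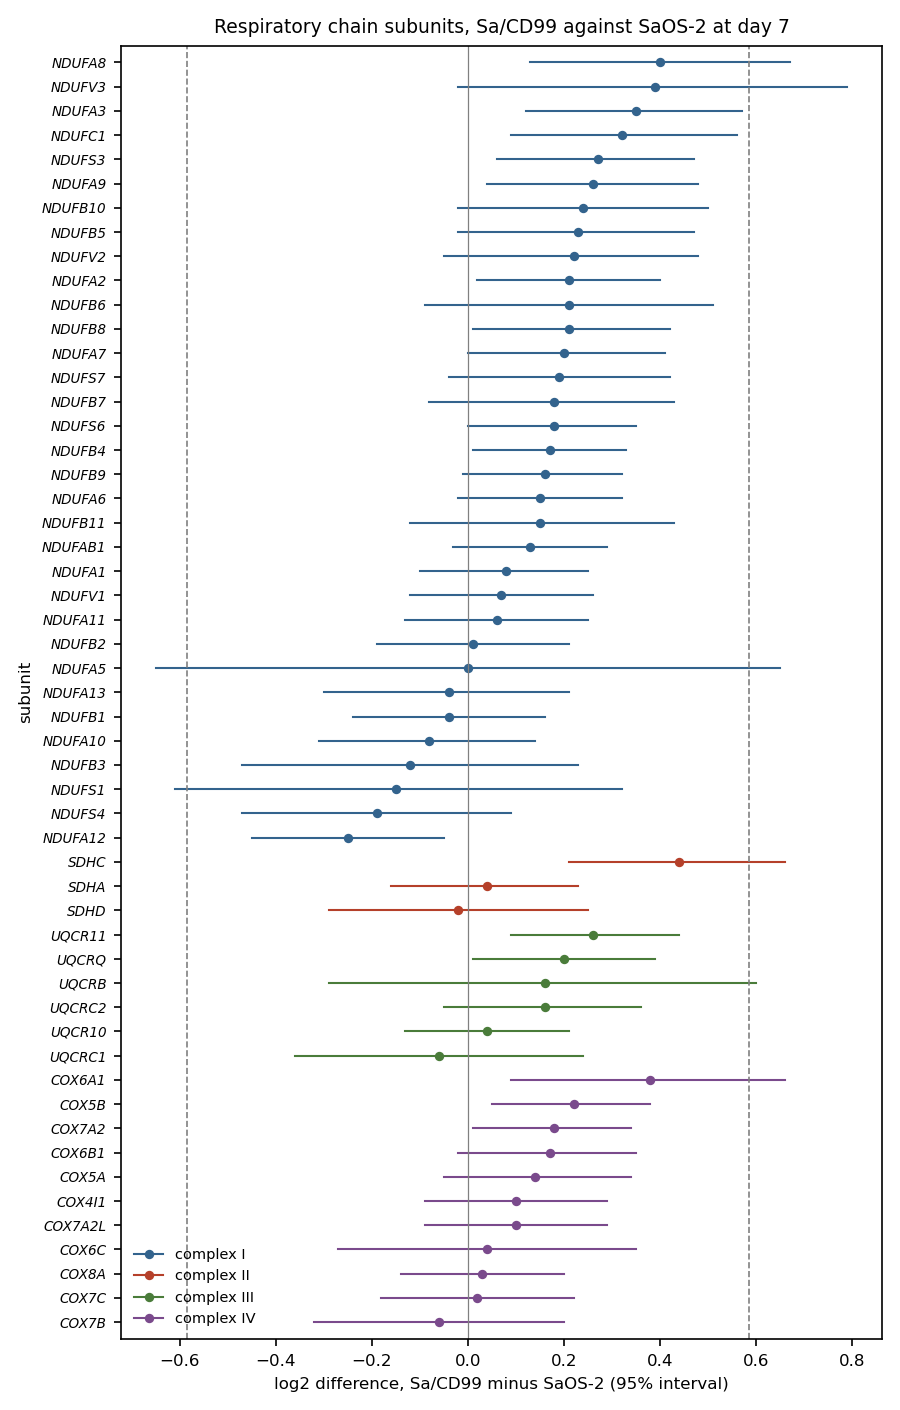
Difference of each of the 53 subunits between arrays labelled Sa/CD99 and SaOS-2 at day 7 (points, log2) with its 95% interval from the fit without the filter on spread (lines), by complex; dashed lines mark 1.5-fold. The intervals of 46 subunits stay between the dashed lines, and 43 points lie to the right of 0.

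SDHC, which with SDHD anchors complex II in the inner membrane and binds ubiquinone, had the largest positive differences between the lines among the 53 subunits at days 7 and 14. Its log2 values at day 7 were 10.47 and 10.50 in Sa/CD99 and 9.99 and 10.11 in SaOS-2, and at day 14 they were 10.83 and 10.75 in Sa/CD99 and 10.40 and 10.38 in SaOS-2. At day 0 they were 10.51 and 10.79 in Sa/CD99 and 10.38 and 10.42 in SaOS-2. The groups did not overlap on any day, and the differences of 0.25, 0.44 and 0.40 at days 0, 7 and 14 had adjusted p-values of 0.372, 0.061 and 0.102 in the limma fit without the filter on spread (SE 0.10). The other 3 probe sets of SDHC with signal were also higher in Sa/CD99 on every day, by 0.28 to 0.61, and 1 of them passed both thresholds at day 7 (0.61, adjusted p = 0.0335). These 3 were looked at after the values of SDHC were known. The 20 measured genes nearest to SDHC on chromosome 1 had median differences of 0.23, 0.32 and 0.34 at days 0, 7 and 14. Its neighbours were thus higher in the same arrays.

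The other 2 subunits of complex II analysed here had values nearer 0, and SDHB was not analysed. SDHD differed by 0.00, -0.02 and -0.05 at days 0, 7 and 14, and SDHA, the flavoprotein that oxidises succinate, by -0.07, 0.04 and -0.08. The probe sets used for SDHA and SDHC are of a kind that can bind other transcripts, and SDHA has pseudogene copies, so the value of SDHA is uncertain.

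In complex I, where 28 of 33 subunits with signal were accessory, the largest differences at day 7 belonged to accessory subunits. The median difference at day 7 was 0.16 over accessory and 0.19 over core subunits. NDUFA8 read 11.04 and 11.23 in Sa/CD99 and 10.83 and 10.64 in SaOS-2 (difference 0.40, adjusted p = 0.127 by limma). NDUFV3, of the module that takes up NADH, differed by 0.27, 0.39 and 0.20 at days 0, 7 and 14, but clone wt36 carried most of it, at 11.59, 11.34 and 11.71 against 11.15, 10.97 and 11.33 in clone wt22. NDUFA3 differed by 0.18, 0.35 and 0.15 (adjusted p = 0.116 at day 7 by limma) and NDUFC1 by 0.05, 0.32 and 0.23 on the same days. COX6A1 of complex IV differed by 0.26, 0.38 and 0.20.

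A few core and accessory subunits of complex I ran the other way. NDUFS1, the large iron-sulfur subunit on the electron path from NADH, differed by -0.23, -0.15 and -0.25 at days 0, 7 and 14. Its values in Sa/CD99 depended on the clone, with 10.02, 9.83 and 10.21 in wt22 and 9.68, 9.43 and 9.58 in wt36, while SaOS-2 arrays spanned 9.72 to 10.15. NDUFA10 differed by -0.26, -0.08 and -0.21, NDUFS4 by -0.05, -0.19 and -0.25, and NDUFA12 by -0.07, -0.25 and -0.19 on the same days. None of these had an adjusted p of 0.05.

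NDUFA5 showed the widest spread of all 53 subunits. At day 0 clone wt22 read 10.17 and wt36 9.08, with the parental arrays at 9.45 and 9.75 between them. At day 14 the 2 clones read 8.95 and 9.11, below 9.64 and 9.91 in SaOS-2, a difference of -0.75 with an adjusted p of 0.233 (limma, SE 0.29). That difference passed both thresholds when either array of Sa/CD99 at day 0 was left out of the fit. The day 0 arrays do not enter the day 14 difference itself. Leaving 1 out removes the gap between the clones at day 0 (10.17 and 9.08) from the estimate of spread. The 20 genes nearest to NDUFA5 had a median difference of -0.10 at day 14.

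Clones differed from each other more than parental arrays did. The main fits nevertheless gave all groups the same estimate of spread for a probe set. In the clones and in the parental pairs alike, the chain differed less than all probe sets with signal. Probe sets of high signal were not compared separately for this spread. The SD of the difference between clones over the 53 subunits was 0.23, 0.20 and 0.19 at days 0, 7 and 14, against 0.34, 0.36 and 0.36 over all probe sets with signal. For the parental pairs it was 0.08, 0.07 and 0.06, against 0.13, 0.12 and 0.11. Clones differed by over 1.5-fold in NDUFA5 and UQCRB at day 0 (1.09 and 0.61) and in NDUFS1 at day 14 (0.63). UQCRB, a small subunit that binds ubiquinone, was at 12.09 in wt22 and 11.48 in wt36 at day 0, on either side of 11.54 and 11.60 in SaOS-2.

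Over time the median of the chain was lowest at day 7 and was above that of day 0 at day 14, with differences under the thresholds for all but 1 subunit. In Sa/CD99, 42 of 53 subunits were lower at day 7 than at day 0 (79.2%, against 53.2% of all probe sets with signal), with a median of -0.08. In SaOS-2, 44 were lower (83%, against 53%), with a median of -0.17. All probe sets with signal had medians of -0.02 in Sa/CD99 and -0.03 in SaOS-2. The 1868 of highest signal had -0.04 in Sa/CD99 (57.6% lower) and -0.06 in SaOS-2 (58.7% lower). Both day 7 arrays lay below both day 0 arrays for 23 subunits in Sa/CD99 (background 29.8%) and for 40 in SaOS-2 (background 43%), and above them for 3 in Sa/CD99 (background 25.7%) and 5 in SaOS-2 (background 37.8%). Both comparisons with day 0 use the same day 0 arrays.

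By complex, the median was furthest below 0 in complex I. In complex I, 28 of 33 subunits were lower at day 7 in either line, with medians of -0.10 in Sa/CD99 and -0.18 in SaOS-2. In complex IV, 9 of 11 were lower in either line, with medians of -0.06 in Sa/CD99 and -0.17 in SaOS-2. Complex III gave -0.05 and -0.10, and complex II 0.04 and -0.02, in the same order of lines. At day 14 against day 7, 47 of 53 subunits were higher in Sa/CD99 (median 0.18) and 46 in SaOS-2 (median 0.26), while 54.3% and 53.1% of all probe sets with signal were. The medians of all probe sets with signal were 0.04 and 0.03, and those of the probe sets of highest signal 0.04 and 0.07. This comparison uses the same day 7 arrays as that of day 7 with day 0. At the level of arrays, the median deviation of the 53 subunits from their own means was 0.036 and 0.071 at day 0, -0.036 and -0.060 at day 7, and 0.108 and 0.117 at day 14 in Sa/CD99. In SaOS-2 it was -0.017 and -0.027, then -0.169 and -0.202, then 0.068 and 0.078. Day 7 was the lowest point in both lines, and on each day both arrays of Sa/CD99 lay above both of SaOS-2.

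**Figure D3:**
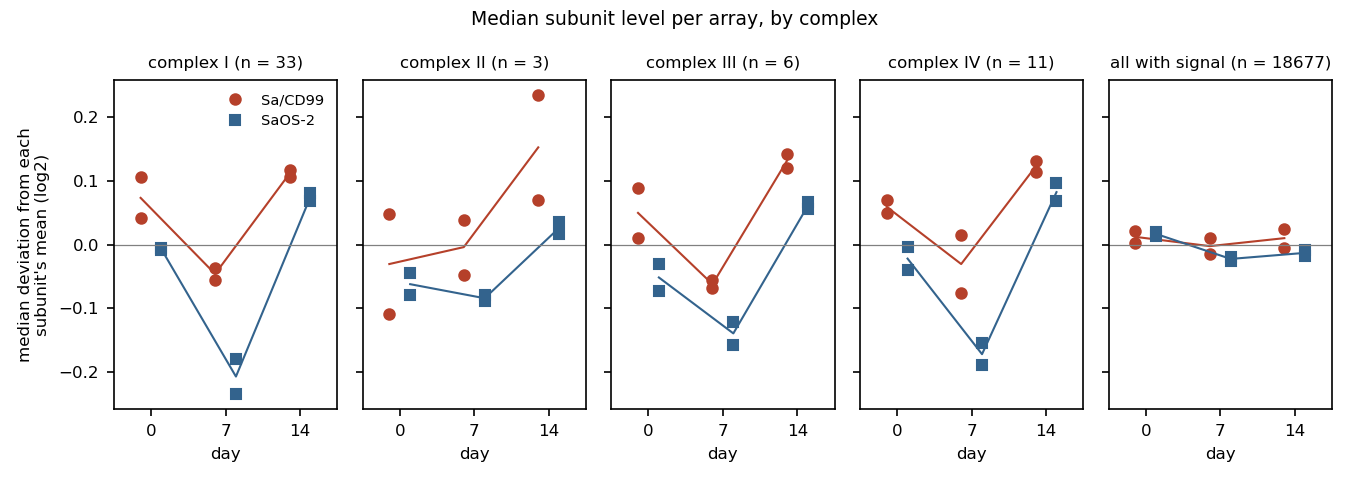
Median over the subunits of each complex of the deviation from the subunit's own mean (log2), by day, for the 2 arrays of Sa/CD99 (circles, left) and of SaOS-2 (squares, right); lines join the means of each pair, and the panel at the right holds all 18677 probe sets with signal. Complexes I, III and IV have their lowest values at day 7 in both lines, and complex I of SaOS-2 reaches -0.234.

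NDUFA7, an accessory subunit of complex I, was the only subunit called in any comparison. In Sa/CD99 it read 9.71 and 9.83 at day 0, 9.27 and 9.20 at day 7, and 9.58 and 9.79 at day 14. In SaOS-2 it read 9.64 and 9.64 at day 0, 9.08 and 8.98 at day 7, and 9.55 and 9.57 at day 14. Day 7 stood below both other days in either line without overlap. In SaOS-2 it fell by 0.61 at day 7 (1.52-fold, SE 0.10, adjusted p = 0.00216 by limma), where 21.4% of all tested probe sets were called, with 8.63% called lower. In Sa/CD99 the difference of -0.53 (SE 0.10, adjusted p = 0.00423 by limma) was 1.45-fold and so no call, where 18.2% of tested probe sets were called. Without array 2 of SaOS-2 at day 7 no subunit was called in SaOS-2. The 20 genes nearest to NDUFA7 on chromosome 19 had medians of -0.06 in Sa/CD99 and -0.02 in SaOS-2.

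Other subunits passed the adjusted p at smaller folds. In the fit without the filter on spread and with no minimum fold, a rule chosen after the data were seen, 4 subunits were lower and 1 higher at day 7 in Sa/CD99, and 14 lower and 1 higher in SaOS-2. The shares of all probe sets with signal were 12.8% lower and 12.4% higher in Sa/CD99, and 16.8% lower and 15.6% higher in SaOS-2. Of the 14 in SaOS-2, 11 were accessory subunits of complex I, a class of 28 of the 53 subunits. None was one of the 5 core subunits of complex I. The 11 were NDUFA1, NDUFA3, NDUFA6, NDUFA7, NDUFA9, NDUFAB1, NDUFB4, NDUFB7, NDUFB8, NDUFB10 and NDUFC1, and the others were SDHC, UQCR11 and COX5A. The median difference at day 7 in SaOS-2 was -0.19 over accessory and -0.18 over core subunits of complex I. NDUFAB1, the mitochondrial acyl carrier protein, read 11.93 and 11.97 at day 7 and 12.27 and 12.29 at day 0 in Sa/CD99. In SaOS-2 it read 11.80 and 11.83 at day 7 and 12.20 and 12.16 at day 0. The differences were -0.33 in Sa/CD99 and -0.36 in SaOS-2, with no overlap in either. NDUFC1 differed by -0.21 in Sa/CD99 and -0.48 in SaOS-2, and NDUFB10 by -0.28 and -0.40.

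The NDUFB subunits, which sit mostly in the membrane arm of complex I, were lower at day 7 in 11 of 11 cases in Sa/CD99 and in 10 of 11 in SaOS-2, where NDUFB3 differed by 0.01. NDUFB7 led them in Sa/CD99, with 9.63 and 9.26 at day 7 and 9.86 and 9.91 at day 0. NDUFB1 differed by -0.18 in Sa/CD99 and -0.17 in SaOS-2. In complex IV, COX7B read 11.30 and 11.37 at day 7 and 11.88 and 11.82 at day 0 in Sa/CD99 (-0.52, adjusted p = 0.0111 by limma), with -0.31 in SaOS-2. UQCRC1, a core protein of complex III, differed by -0.38 in Sa/CD99 and -0.25 in SaOS-2, its partner UQCRC2 by -0.01 and -0.09. The other probe set of UQCRC2 with signal gave -0.12 in Sa/CD99 and -0.26 in SaOS-2. SDHC gave -0.16 and -0.35, COX7A2 -0.07 and -0.18, and NDUFS1 -0.22 and -0.30.

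A few subunits had higher values at day 7. NDUFA12, an accessory subunit of complex I, read 12.24 and 12.01 at day 7 and 11.94 and 11.86 at day 0 in Sa/CD99 (0.23, adjusted p = 0.0994 by limma). In SaOS-2 it read 12.38 and 12.38 at day 7, with a mean of 11.97 at day 0 (0.41, adjusted p = 0.0109 by limma). COX7A2L, which joins complexes III and IV in supercomplexes, read 11.12 and 10.99 at day 7 and 10.70 and 10.74 at day 0 in Sa/CD99 (0.34, adjusted p = 0.0223 by limma), and differed by 0.23 in SaOS-2. NDUFA5 differed by 0.63 in Sa/CD99 and 0.66 in SaOS-2, with an SE of 0.29 and adjusted p-values of 0.117 and 0.0954 by limma. Subunits of 1 complex thus had differences of opposite sign between the same arrays. NDUFV1, which takes up NADH, differed by 0.09 and 0.00, SDHA by 0.09 and -0.02, SDHD by 0.04 and 0.06, and COX4I1 by 0.05 and 0.07. The other probe set of COX4I1 with signal gave 0.04 in Sa/CD99 and -0.14 in SaOS-2.

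**Figure D4:**
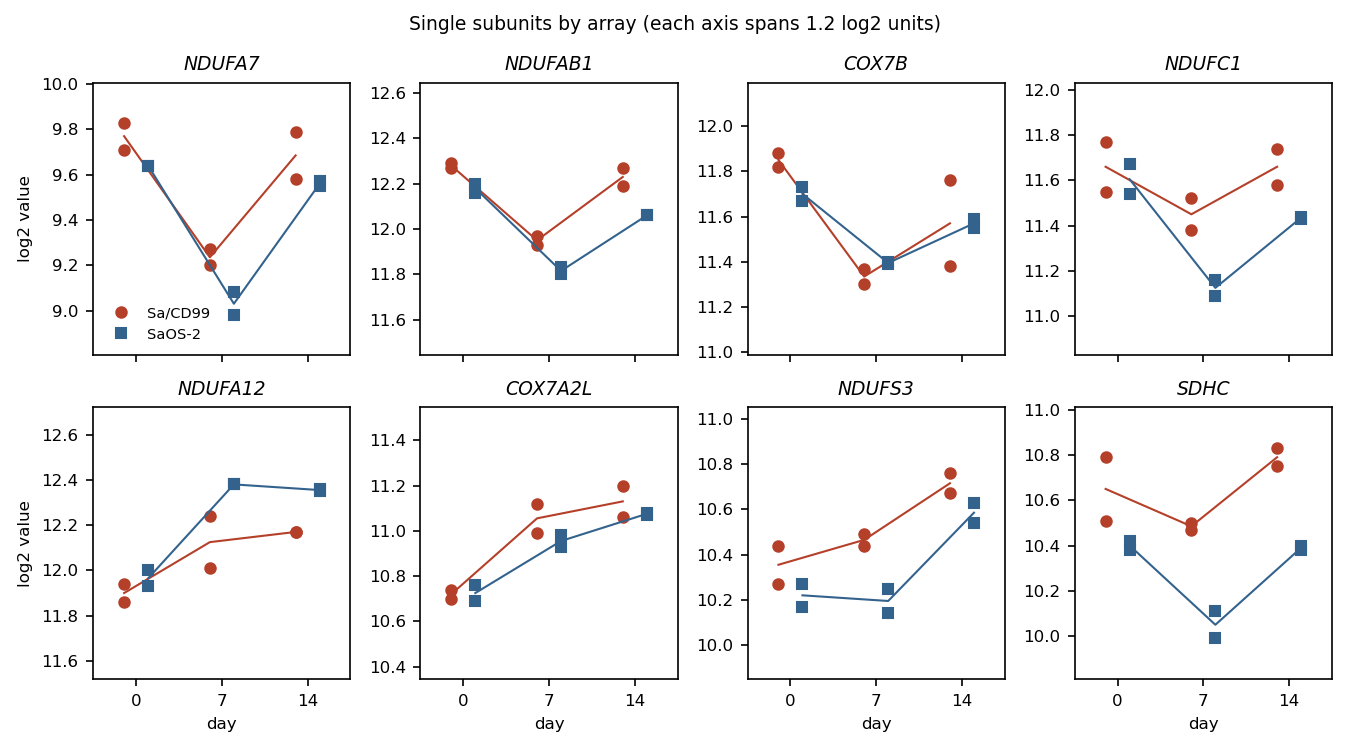
Log2 values of 8 subunits by day, with 1 point per array for Sa/CD99 (circles, left) and SaOS-2 (squares, right) and lines through the means of each pair; every vertical axis spans the same range. NDUFA7, NDUFAB1, COX7B and NDUFC1 are lowest at day 7 in both lines, NDUFA12 and COX7A2L are higher at days 7 and 14 than at day 0, and SDHC is higher in Sa/CD99 on all 3 days.

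At day 14 most subunits lay within a small distance of day 0, with more of them above than below. No subunit was called in either line, where 19.4% of tested probe sets were called in Sa/CD99 and 14.9% in SaOS-2. Subunits were higher in 36 of 53 cases in Sa/CD99 (median 0.06, against 48.5% of all probe sets higher) and 39 in SaOS-2 (median 0.07, against 44.9%). Both day 14 arrays lay above both day 0 arrays for 20 subunits in Sa/CD99 (background 28.8%) and 31 in SaOS-2 (background 34.4%), and below them for 6 in Sa/CD99 (background 31.4%) and 10 in SaOS-2 (background 44.4%). The 95% interval stayed inside 1.5-fold for 48 of 53 subunits in Sa/CD99 and 49 in SaOS-2, against 56.9% and 59.1% of all probe sets with signal.

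The core subunits of complex I, which hold the iron-sulfur clusters and the quinone site, were higher at day 14 in 5 of 5 cases in either line, with medians of 0.18 in Sa/CD99 and 0.15 in SaOS-2. NDUFS3 read 10.67 and 10.76 at day 14 in Sa/CD99, against 10.27 and 10.44 at day 0 (0.36, adjusted p = 0.0213 by limma). In SaOS-2 it read 10.63 and 10.54, against 10.27 and 10.17 (0.37, adjusted p = 0.0233). NDUFV1 differed by 0.20 in Sa/CD99 and 0.27 in SaOS-2, and NDUFS1 by 0.05 and 0.07. COX7A2L differed by 0.41 and 0.35 (adjusted p = 0.0103 and 0.0212 by limma), NDUFA12 by 0.27 and 0.39, COX6B1 by 0.27 and 0.25, and UQCR11 by 0.24 and 0.27. SDHA differed by 0.25 and 0.26, COX4I1 by 0.15 and 0.23, SDHC by 0.14 and -0.01, UQCRC1 by 0.12 and 0.09, and NDUFB1 by 0.12 and 0.28. SDHD, UQCRC2 and COX7A2 stayed between -0.07 and 0.05 in both lines on the probe sets used. The other probe set of UQCRC2 with signal gave 0.11 in Sa/CD99 and -0.14 in SaOS-2. The lowest values belonged to NDUFA5 in Sa/CD99 (-0.60), NDUFB3 (-0.40 in Sa/CD99 and -0.38 in SaOS-2) and NDUFS4 (-0.39 and -0.19), and in SaOS-2 to NDUFA6 (-0.18) and NDUFC1 (-0.17). The other probe set of NDUFA6 with signal had the opposite sign in SaOS-2 (0.18). With no minimum fold and no filter on spread, 4 subunits were higher and 1 lower in Sa/CD99, and 7 higher and none lower in SaOS-2 (background 11.9% higher and 16% lower, and 9.69% and 13.3%).

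Whether the lines differed in their course was tested as an interaction. No subunit was called at day 7 or day 14, where 0% and 0.0155% of tested probe sets were, and none of the 53 had an unadjusted p under 0.05 at either day, which 4.66% and 3.71% of all probe sets with signal had. The median interaction was 0.07 at day 7 and -0.02 at day 14. At day 7 the highest values were those of NDUFC1 (0.27), NDUFB8 (0.23), SDHC and NDUFA8 (0.19 each), and the lowest those of COX7B (-0.21), NDUFB3 (-0.19) and NDUFA12 (-0.18). At day 14 NDUFC1 (0.17) and SDHC (0.15) were highest, and NDUFA5 (-0.78), UQCRB (-0.27) and NDUFS4 (-0.20) lowest. The median half-width of a 95% interval was 0.29 for an interaction.

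Of the 53 subunits, 16 had several probe sets with signal. These gave the same sign for 16 of 16 between the lines at day 0, 15 at day 7 and 11 at day 14. For day 7 against day 0 they did so for 13 of 16 in either line, and COX5B and NDUFA6 differed in both. For day 14 against day 0 they did so for 9 in Sa/CD99 and 10 in SaOS-2. NDUFA6, NDUFS1, NDUFV3 and SDHC differed in both. The sign of small day 14 differences therefore depended on the probe set.

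Nuclear genes of the chain are known to share binding sites for NRF1 and for ETS factors such as GABP in their promoters. RefSeq promoters (GRCh38.p14) running from 250 bases before to 50 bases after the start were matched for 52 of the 59 subunits and searched on both strands. The NRF1 motif (GCGCA and GCGC with any 1 base between them) was found in 12 (23.1%), against 8.57% of 15842 protein-coding promoters, and the ETS motif CCGGAAG in 13 (25%), against 14.2%. No match of one motif overlapped a match of the other in the promoters printed here. Both occurred in SDHD and UQCR11 and neither in 29. The promoters below, each the 250 bases before the start, are shown because they belong to subunits with differences of opposite sign at day 7 (NDUFA7 and NDUFA12) or hold the most matches (SDHA with 4 of NRF1, UQCR11 with 2 of each); capitals mark the matches. They lie at chr19:8321376-8321625, minus strand (NDUFA7), chr12:95003698-95003947, minus strand (NDUFA12), chr5:218070-218319, plus strand (SDHA), and chr19:1605463-1605712, minus strand (UQCR11).
NDUFA7: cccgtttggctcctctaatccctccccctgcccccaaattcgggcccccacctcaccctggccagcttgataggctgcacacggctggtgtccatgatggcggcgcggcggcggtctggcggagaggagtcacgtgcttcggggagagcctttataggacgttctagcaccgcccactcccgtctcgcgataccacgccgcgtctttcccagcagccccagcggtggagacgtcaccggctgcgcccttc
NDUFA12: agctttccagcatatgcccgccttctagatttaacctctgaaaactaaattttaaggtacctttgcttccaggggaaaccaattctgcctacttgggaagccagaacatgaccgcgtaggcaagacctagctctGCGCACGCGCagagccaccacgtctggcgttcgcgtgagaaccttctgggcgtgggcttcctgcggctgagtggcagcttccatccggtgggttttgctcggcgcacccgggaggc
SDHA: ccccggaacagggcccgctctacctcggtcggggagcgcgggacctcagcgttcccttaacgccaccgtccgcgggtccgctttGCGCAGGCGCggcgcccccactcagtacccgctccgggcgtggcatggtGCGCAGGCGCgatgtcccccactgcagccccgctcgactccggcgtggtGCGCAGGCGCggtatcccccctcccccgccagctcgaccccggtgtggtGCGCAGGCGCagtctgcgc
UQCR11: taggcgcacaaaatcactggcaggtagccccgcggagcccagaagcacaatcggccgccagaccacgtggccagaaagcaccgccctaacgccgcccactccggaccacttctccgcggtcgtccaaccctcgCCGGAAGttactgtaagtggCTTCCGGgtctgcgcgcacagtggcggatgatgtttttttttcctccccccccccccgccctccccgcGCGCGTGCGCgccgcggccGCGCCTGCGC
NDUFA7, NDUFA5, NDUFAB1 and COX7A2L had neither motif in the window, while NDUFA12 had 1 of NRF1. A match is a run of letters and no evidence of binding.

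Of 13 regulators of mitochondrial genes with signal, 10 were tested, and 1 of these was called at day 7 in SaOS-2 and 1 at day 14 in Sa/CD99, where 21.4% and 19.4% of all tested probe sets were called. The gene NRF1 differed by -0.34 at day 7 in Sa/CD99 and -0.40 in SaOS-2, and GABPA, the DNA-binding subunit of GABP, by 0.11 and by 0.63 (adjusted p = 0.0245 by limma), in the same order of lines. TFAM, which packages and transcribes mitochondrial DNA, fell by 0.62 at day 14 in Sa/CD99 (adjusted p = 0.0196 by limma) and differed by -0.39 in SaOS-2. PPARGC1A, a coactivator of mitochondrial genes, gave no signal. CYC1, cytochrome c1 of complex III, and CYCS, cytochrome c, were called nowhere. CYC1 gave -0.19 in Sa/CD99 and -0.29 in SaOS-2 at day 7 and 0.19 and 0.11 at day 14, while CYCS gave -0.03 and 0.07, then -0.43 and -0.26.

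Other mitochondrial gene groups were read beside the chain, and hypoxia-responsive genes as a contrast. Of 18 ATP synthase genes with signal, 15 in Sa/CD99 and 17 in SaOS-2 were lower at day 7, with medians of -0.14 and -0.19 and no call. Of 75 mitochondrial ribosome genes, 61 and 63 were lower, with medians of -0.14 and -0.20, and 63, 60 and 64 were higher in Sa/CD99 than in SaOS-2 at days 0, 7 and 14. Hypoxia-responsive metabolic genes had larger differences. Of 15 tested, 9 were called lower at day 7 and 11 at day 14 in Sa/CD99, and 10 and 10 in SaOS-2. The background of calls lower was 7.78%, 13%, 8.63% and 8.86% in the same order. By sign, 14 and 14 were lower in Sa/CD99 and 13 and 14 in SaOS-2, with medians of -0.90, -0.95, -0.82 and -1.10. PDK1, the kinase that shuts pyruvate out of the tricarboxylic acid cycle, fell in each, with differences of -2.24 at day 7 and -2.36 at day 14 in Sa/CD99 and of -2.06 and -2.33 in SaOS-2 (adjusted p at most 9.62e-05 by limma). BNIP3, a mediator of mitophagy, also fell, with -2.54 in Sa/CD99 and -2.78 in SaOS-2 at day 7. Between the lines none of the 15 was called. The medians of the chain in the same comparisons were -0.08 and 0.06 in Sa/CD99 and -0.17 and 0.07 in SaOS-2.

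**Figure D5:**
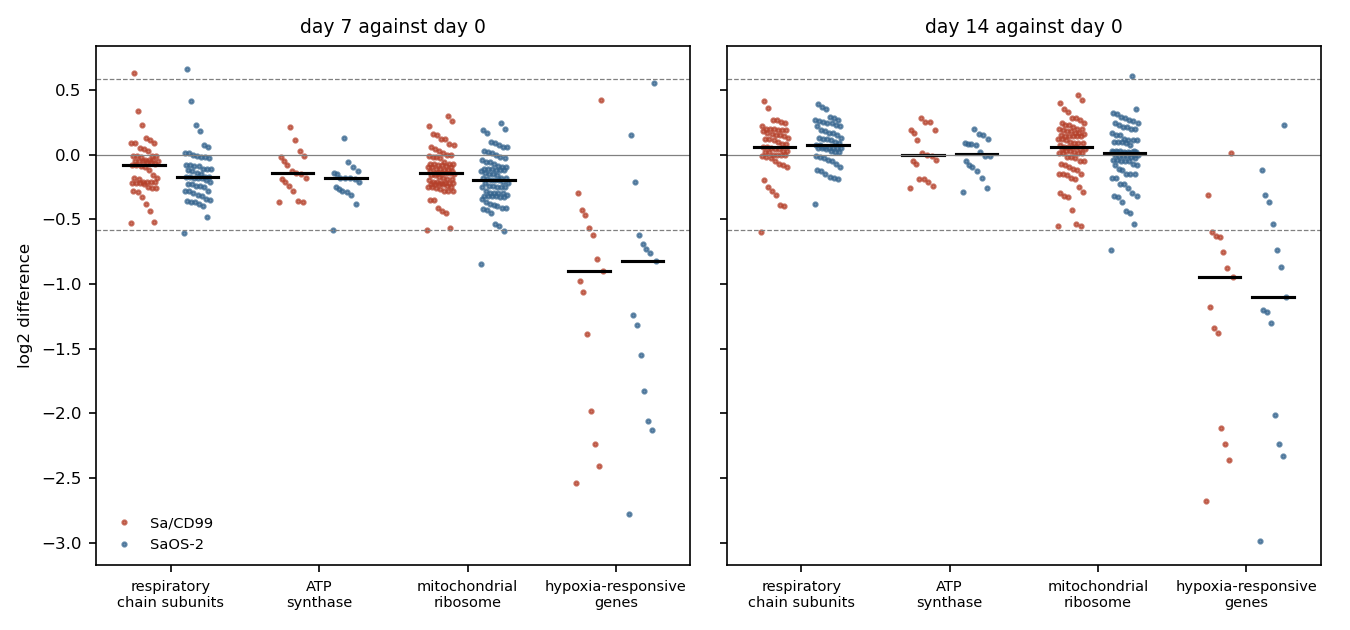
Log2 differences of single genes (points) for days 7 and 14 against day 0 in Sa/CD99 (left of each pair) and SaOS-2 (right), for the 53 chain subunits, ATP synthase, the mitochondrial ribosome and hypoxia-responsive genes; black bars are medians and dashed lines mark 1.5-fold. Chain subunits lie near 0, with medians of -0.08 and -0.17 at day 7, while the hypoxia-responsive gene BNIP3 lies at -2.54 in Sa/CD99 and -2.78 in SaOS-2 at day 7.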

How the data were processed

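Total RNA of 12 samples was hybridised to Affymetrix HG-U133 Plus 2.0 arrays, and the authors deposited log2 expression values made with RMA of the affy package, whose versions are not given in the sources used here. These log2 values were used as deposited. Probe sets were named from the platform annotation (41091 with 1 gene, 1801 with several, 11721 with none, and 62 controls), and each gene took, among probe sets naming it alone, the one with the highest mean over the 12 arrays. As in the study's methods, probe sets at or under 100 (6.64 in log2) on 9 or more arrays, or with an interquartile range at or under the median of 0.219, were dropped, leaving 12894. A model with a mean for each of the 6 groups was fitted in limma 3.58.1 (R 4.3.3) to all of these, with Benjamini-Hochberg adjustment and calls at an adjusted p of 0.05 and 1.5-fold. A second fit used the 18677 probe sets that passed the signal filter alone, and its 95% intervals come from the moderated variance (6 residual and 3.183 prior degrees of freedom). The scripts were tested on simulated data. The subunits, the other gene lists and the tests were chosen with earlier results of these data known. Subunits were named in the text by a rule of the largest differences in each direction and comparison, together with all calls and a fixed group of common subunits, and other names were added after their values were seen. The number of arrays, 2 per group, limits the precision. Numbers 22 and 36 mark the same clone at each day, and same-numbered arrays of Sa/CD99 deviated together (r of 0.58, 0.32 and 0.63 over the 12894 probe sets), whereas parental arrays did so at -0.04, 0.24 and -0.05. Alternatives were other filters, no minimum fold, other probe sets per gene, median centring, quantile normalization, an intensity trend, array weights, the clone or array number as a block, and leaving out each array. Quantile normalization used the tested probe sets for calls and all probe sets with signal for medians. Promoter sequences are from RefSeq, GRCh38.p14.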

Additional observations from a re-analysis of the deposited data

How the results depend on the processing

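With the replicate block and the 1.5-fold minimum, the count of called subunits was unchanged in every comparison. It was 1 for day 7 against day 0 in SaOS-2 (median -0.169) and 0 in the others. Adjusted p-values of some subunits did move with the block. At day 7 in SaOS-2, NDUFV3 went from 0.167 to 0.0175 and NDUFS1 from 0.273 to 0.0365 by limma. UQCRB went from 0.232 to 0.0365 at day 14 in Sa/CD99, while UQCRC1 rose from 0.0552 to 0.0604 at day 7 in Sa/CD99. No median of the day or line comparisons changed sign under any alternative run. Without the block and without a minimum fold, 5 subunits were called at day 7 in Sa/CD99 and 5 in SaOS-2. At day 14 the count was 3 in Sa/CD99 and 5 in SaOS-2. With the filter on spread also dropped, a setting chosen after seeing the data, these counts were 5, 15, 5 and 7. Array weights by line called 2 at day 7 in SaOS-2, NDUFA5 and NDUFA7. Medians in Sa/CD99 at day 7 were -0.167 with the probe set of largest interquartile range and -0.036 after quantile normalization of the probe sets with signal. In SaOS-2 at day 7 they were -0.212 with arrays centred on the median, -0.192 with the largest interquartile range, -0.131 with probe sets without shared probes and -0.121 after quantile normalization. In Sa/CD99 at day 14 the same settings gave 0.155, 0.034, 0.029 and 0.086, and in SaOS-2 at day 14 they gave 0.150, 0.083, 0.081 and 0.112. Between the lines at day 14 they gave 0.068, 0.070, 0.062 and 0.040, and no filter gave 0.062. Centring gave 0.210 between the lines at day 7 and 0.120 for the interaction at day 7. The cause of these shifts was not tested. Leaving out each of the 12 arrays in turn, the counts of calls ranged from 0 to 2 at day 7 in either line and at day 14 in Sa/CD99, and from 0 to 1 between the lines at day 14. The call of NDUFA7 was lost without array 2 of SaOS-2 at day 7. NDUFA5 was added for day 7 in SaOS-2 and between the lines at day 14 without either clone at day 0, and for day 7 in Sa/CD99, with NDUFA7, without wt22 at day 0. NDUFB7 was called at day 7 in Sa/CD99 without wt22 at day 7. At day 14 in Sa/CD99, NDUFA5 and UQCRB were called without wt36 at day 0, and NDUFB3 without wt36 at day 14. The medians then spanned -0.100 to -0.077 at day 7 and 0.032 to 0.107 at day 14 in Sa/CD99. In SaOS-2 they spanned -0.169 to -0.141 at day 7 and 0.068 to 0.103 at day 14. Between the lines they spanned 0.048 to 0.100 at day 0, 0.112 to 0.157 at day 7 and 0.031 to 0.070 at day 14, and for the interactions 0.049 to 0.079 at day 7 and -0.050 to 0.008 at day 14. With 2 arrays per group, the median half-width of a subunit's 95% interval was 0.21 in each day or line comparison. All groups shared the same estimate of spread, so this width does not reflect the closer agreement of the parental arrays.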

Other observations

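Few genes that serve the chain without being part of it were called. Of 40 assembly factors with signal, 27 were tested, and 1 was called at day 7 and 1 at day 14 in Sa/CD99, and 3 at day 7 and 1 at day 14 in SaOS-2. In these comparisons 18.2%, 19.4%, 21.4% and 14.9% of all tested probe sets were called, so the shares of assembly factors were below those of all probe sets. UQCC3, which builds complex III, fell by 0.81 at day 7 in both Sa/CD99 and SaOS-2 (adjusted p = 0.00114 and 0.00113 by limma). NDUFAF3, an assembly factor of complex I, fell by 0.83 at day 7 in SaOS-2 (adjusted p = 0.000286 by limma) and differed by -0.45 in Sa/CD99. TMEM126B, an assembly factor of the complex I membrane arm, rose by 0.77 at day 7 in SaOS-2 (adjusted p = 0.00431 by limma) and differed by 0.56 in Sa/CD99. LYRM7, the chaperone of the iron-sulfur protein of complex III, fell at day 14, with differences of -0.62 in Sa/CD99 and -0.70 in SaOS-2. The interactions of NDUFAF3 and TMEM126B at day 7, 0.38 and -0.21, had adjusted p-values of 0.999 by limma.

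Of 14 genes of ubiquinone synthesis, the electron transfer flavoproteins, cytochrome c and cytochrome c1, 9 were tested. COQ4, needed to make ubiquinone, was the only gene of the lists named here and in the report that was called between the lines, with a difference of 0.62 at day 7 (adjusted p = 0.0234 by limma) and 0.56, no call, at day 14. COQ3, another enzyme of that route, fell by 0.85 at day 7 in SaOS-2. Of 16 genes of the tricarboxylic acid cycle and its entry with signal, 9 were tested, of which 1 and 2 were called at days 7 and 14 in Sa/CD99 and 2 and 1 in SaOS-2, near the shares of all tested probe sets. OGDH, of the oxoglutarate dehydrogenase complex, rose by 0.69 at day 14 in Sa/CD99, and by 0.66 at day 7 and 0.65 at day 14 in SaOS-2. PC, pyruvate carboxylase, fell by 0.59 at day 7 in both lines, and SUCLA2 fell by 0.75 at day 14 in Sa/CD99.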
